A study of Mus musculus with 9 samples.

Results

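Imprinted genes that lie outside the Dlk1-Dio3 cluster of chromosome 12 were followed in 3 lines of mouse embryonic stem cells, taken from a table of 52636 Ensembl gene IDs. The 43 genes were a list of symbols, all 43 were matched to an ID through the GENCODE M21 annotation (mm10), and they were grouped into 19 imprinted domains and by the parental copy they are known to be expressed from. The list held 19 maternally and 24 paternally expressed genes. Of the 43, 40 passed the low-count filter and 3 lay under it, namely Airn, Rasgrf1 and Kcnk9.

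An imprinted gene is read mainly or solely from the copy inherited from the mother or from the father. The choice is set by DNA methylation that is laid down in the egg or sperm at an imprinting control region, and that the KRAB zinc finger protein ZFP57 and its partner TRIM28 help to keep after fertilisation. Many imprinted genes act on fetal and placental growth, and imprints in embryonic stem cells are known to vary between lines and culture conditions. The deposited counts hold no allele information, so a change in the level of a gene cannot be assigned to a parental copy, and the parental copy given here for each gene is background knowledge.

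Each of 3 lines gave 3 libraries. Esrrb+Nanog cells are line 44JN, titled NanogKO:Esrrb:Nanog, Esrrb cells are line 44J, titled NanogKO:Esrrb, and Nanog-null cells are line 44C6, titled NanogKO. The genotype label is N{delta}:cE:iN for both lines named for an added gene and N{delta} for the Nanog-null line, and the short forms cE and iN are not explained. All the lines thus carry the label of a Nanog deletion, were cultured with serum and the cytokine LIF, and were sorted for the surface protein PECAM and against the primitive endoderm receptor PDGFRA. Every group consists of 1 line, and what the added gene does cannot be told apart from what sets that line apart. Whether the replicates were grown as separate cultures is not stated, and p-values therefore reflect the scatter of these libraries, which may be technical.

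Library totals ran from 21808120 to 32496267 counts. Nanog was at 221 to 333 CPM (counts scaled to library size) in the Esrrb+Nanog libraries, 29.7 to 35.1 CPM in Esrrb cells and 14.3 to 16.02 CPM in Nanog-null cells. It was also higher in Esrrb cells than in Nanog-null cells, with a log2 change of 1.09 ± 0.14 (adjusted p = 5.92e-05), although the title of the Esrrb line names no added Nanog. The deleted stretch of Nanog is not named in the labels. Esrrb was at 1056 to 1151 CPM in Esrrb+Nanog cells, 692 to 949 CPM in Esrrb cells and 253 to 303 CPM in Nanog-null cells. The summed level of 8 pluripotent cell markers was 5000 to 5053 CPM in Esrrb+Nanog cells, 4795 to 4884 CPM in Esrrb cells and 3033 to 3345 CPM in Nanog-null cells. These 8 include Nanog and Esrrb themselves, so part of the difference in the sum is that of the genes the lines are named for. The 10 trophoblast markers summed to 50.6 to 58.5 CPM in Esrrb+Nanog cells, 37.8 to 64.7 CPM in Esrrb cells and 107 to 272 CPM in Nanog-null cells, with Elf5 at 0 in Esrrb cells. Sums of 12 primitive endoderm markers were 581 to 710.1 CPM in Esrrb+Nanog cells, 443 to 632 CPM in Esrrb cells and 255 to 552 CPM in Nanog-null cells. The 8 fibroblast markers, a sum made up mostly of Fn1, added up to 1148 to 1429 CPM in Esrrb+Nanog cells, 1520 to 1722 CPM in Esrrb cells and 1620 to 1792 CPM in Nanog-null cells, with Postn at 0 in Esrrb+Nanog and Esrrb cells and Col3a1 at 0 in Esrrb+Nanog cells. The 8 neural markers added up to 92.4 to 139 CPM in Esrrb+Nanog cells, 72.9 to 104 CPM in Esrrb cells and 80.3 to 99.8 CPM in Nanog-null cells. Nanog-null replicate 2 held the highest of the trophoblast sums. In that library 7 of 11 tested primitive endoderm markers, 3 of 9 trophoblast markers, 3 of 5 fibroblast markers and 1 of 6 neural markers were more than 2-fold higher than in the other Nanog-null libraries, against 0 of 40 imprinted genes. Of all tested genes 0.605% were more than 2-fold apart in either direction. The log2 ratio of that library to the mean of the others was 0.865 for Igf2, 0.743 for Gnas and -1.2 for Kcnq1ot1. The Kcnq1ot1 ratio reflects Nanog-null replicate 1, at 24.5 CPM, since replicates 2 and 3 were at 6.59 and 7.19 CPM.

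Promoters of 4 genes are shown, those with the smallest adjusted p in Esrrb cells against Nanog-null cells that lie in different domains and have a promoter window in RefSeq. Each runs from 250 bases before to 50 bases after the RefSeq start, on the strand of the gene, in GRCm38.p6 (the mm10 coordinates). Capitals mark TGCCGC, the hexamer that ZFP57 binds when it is methylated, on either strand. The windows are chr7:143502475-143502774 (minus strand) for Phlda2, chr6:30737800-30738099 (plus strand) for Mest, chr7:62464461-62464760 (minus strand) for Peg12 and chr7:6730370-6730669 (minus strand) for Peg3.
Phlda2: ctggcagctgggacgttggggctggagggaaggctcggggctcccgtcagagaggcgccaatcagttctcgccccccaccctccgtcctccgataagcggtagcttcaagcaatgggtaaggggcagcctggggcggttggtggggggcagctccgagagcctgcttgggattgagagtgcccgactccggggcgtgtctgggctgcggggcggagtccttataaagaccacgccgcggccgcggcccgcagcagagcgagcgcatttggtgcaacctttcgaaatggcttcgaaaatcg
Mest: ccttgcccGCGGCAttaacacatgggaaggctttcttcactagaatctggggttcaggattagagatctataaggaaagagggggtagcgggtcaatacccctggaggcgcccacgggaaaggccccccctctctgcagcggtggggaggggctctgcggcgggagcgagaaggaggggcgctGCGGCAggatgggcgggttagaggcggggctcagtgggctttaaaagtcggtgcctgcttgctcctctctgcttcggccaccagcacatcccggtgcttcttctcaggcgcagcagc
Peg12: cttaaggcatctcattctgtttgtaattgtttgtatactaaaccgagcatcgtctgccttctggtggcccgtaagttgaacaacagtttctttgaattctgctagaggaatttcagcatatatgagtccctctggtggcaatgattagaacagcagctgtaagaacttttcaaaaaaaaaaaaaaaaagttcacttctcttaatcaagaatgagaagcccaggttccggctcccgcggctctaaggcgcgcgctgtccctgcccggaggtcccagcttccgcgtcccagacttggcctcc
Peg3: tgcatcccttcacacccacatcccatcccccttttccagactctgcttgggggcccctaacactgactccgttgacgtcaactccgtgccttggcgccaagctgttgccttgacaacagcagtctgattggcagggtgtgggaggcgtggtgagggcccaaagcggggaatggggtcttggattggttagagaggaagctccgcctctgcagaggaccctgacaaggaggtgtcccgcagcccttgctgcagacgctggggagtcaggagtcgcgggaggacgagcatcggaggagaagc

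The Phlda2 window held 26 CpG, the Mest window 17, the Peg3 window 13 and the Peg12 window 12, and only the Mest window among these 4 held the hexamer, at 2 places. RefSeq windows were found for 34 of the 43 genes, 49 windows in all. The median number of CpG was 17 over these windows and 7 over all 32851 windows of the genome. TGCCGC was present in 13 of the 49 windows (26.5%), which belong to 12 genes, and in 11.6% of all windows. The letters AAGGTCA, the core of the element that ESRRB binds, searched on both strands, were in 0 of the 49 windows and in 4.72% of all windows. A match or its absence describes these letters in these windows and no more.

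Esrrb cells were first set against Nanog-null cells, which asks how imprinted genes differ where Esrrb was added to a line labelled Nanog-deleted. Of the 40 genes tested, 6 were higher, 20 were lower and 14 were not called in Esrrb cells (edgeR's quasi-likelihood test, Benjamini-Hochberg adjusted p under 0.05), so 65% were called against 48.5% of all 16198 tested genes. The share lower was 50% and the share higher 15%, beside 24.2% in each direction over all genes, and the median log2 change was -0.32 beside 0.01. A change of more than 2-fold was found in 9 of the genes that were lower and in 0 of those that were higher. The share of all tested genes with a change of that size was not computed, here or in the other comparisons. Since RNA came from many cells at once, fewer expressing cells and less RNA per cell cannot be told apart in any of these comparisons.

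Paternally and maternally expressed genes gave different counts in that comparison. In Esrrb cells 14 of the 22 tested paternally expressed genes were lower and 4 were higher, with a median log2 change of -0.40. Of the 18 tested maternally expressed genes 6 were lower and 2 were higher, with a median of -0.10. The difference between the parental groups was not tested. The groups follow background knowledge, and these counts do not show which of the genes are imprinted in these cells. Slc22a18 and Cd81 were the maternally expressed genes that rose, and Zdbf2, Mcts2, Zrsr1 and Peg13 the paternally expressed ones.

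Setting Esrrb+Nanog cells against Esrrb cells asks which of the genes differ where Nanog was added on top of Esrrb. Here 4 imprinted genes were higher, 6 were lower and 30 were not called, or 25% called beside 13.2% of all genes tested (5.43% higher and 7.75% lower). The median log2 change was 0.00 over the 40 genes, 0.08 over the maternally expressed and -0.04 over the paternally expressed ones. The 4 genes that rose were Phlda2, Slc22a18, Ascl2 and Mest, and 3 of them lie in the Kcnq1 domain. The 6 that fell were H19, Igf2, Peg10, Ppp1r9a, Snrpn and Magel2, 4 of them by more than 2-fold. The share of all genes called was 6.65% without Esrrb replicate 1, 8.2% without Esrrb replicate 3 and 7.24% without Esrrb+Nanog replicate 2. With library totals as the sole scaling, 7 imprinted genes were higher and 6 lower, and 59.6% of all calls were higher, against 41.2% with the scaling used here.

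Esrrb+Nanog cells against Nanog-null cells gave 9 imprinted genes that were higher, 20 that were lower and 11 not called, beside 54.4% of all genes called (27.2% in each direction). Among paternally expressed genes 15 of 22 were lower and 4 higher, with a median log2 change of -0.80. Among maternally expressed genes 5 of 18 were lower and 5 higher, with a median of -0.09; without Nanog-null replicate 1 the higher count was 3. Each pair of comparisons shares the libraries of a line, so their values are given side by side and were not set against each other in a test. Over the 3 comparisons 7 genes were called in all 3, 20 in 2, 4 in 1, and 9 of those tested in none.

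**Figure D1:**
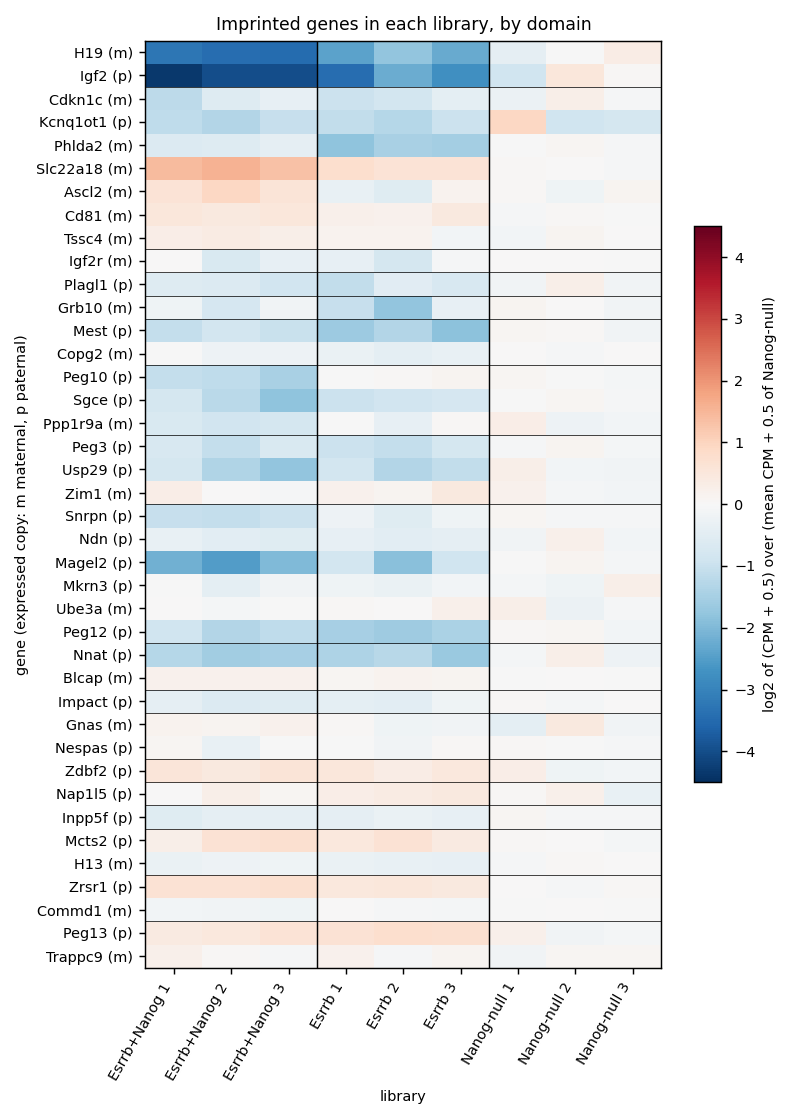
Each row is 1 of the 40 tested imprinted genes, ordered by domain with lines between domains, and each column is 1 library. Colour gives the log2 ratio of the library's CPM to the mean of the 3 Nanog-null libraries, with 0.5 CPM added to both. H19 and Igf2 are the darkest blue in the Esrrb+Nanog libraries, Slc22a18 is red there, and Kcnq1ot1 stands out in Nanog-null replicate 1.

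**Figure D2:**
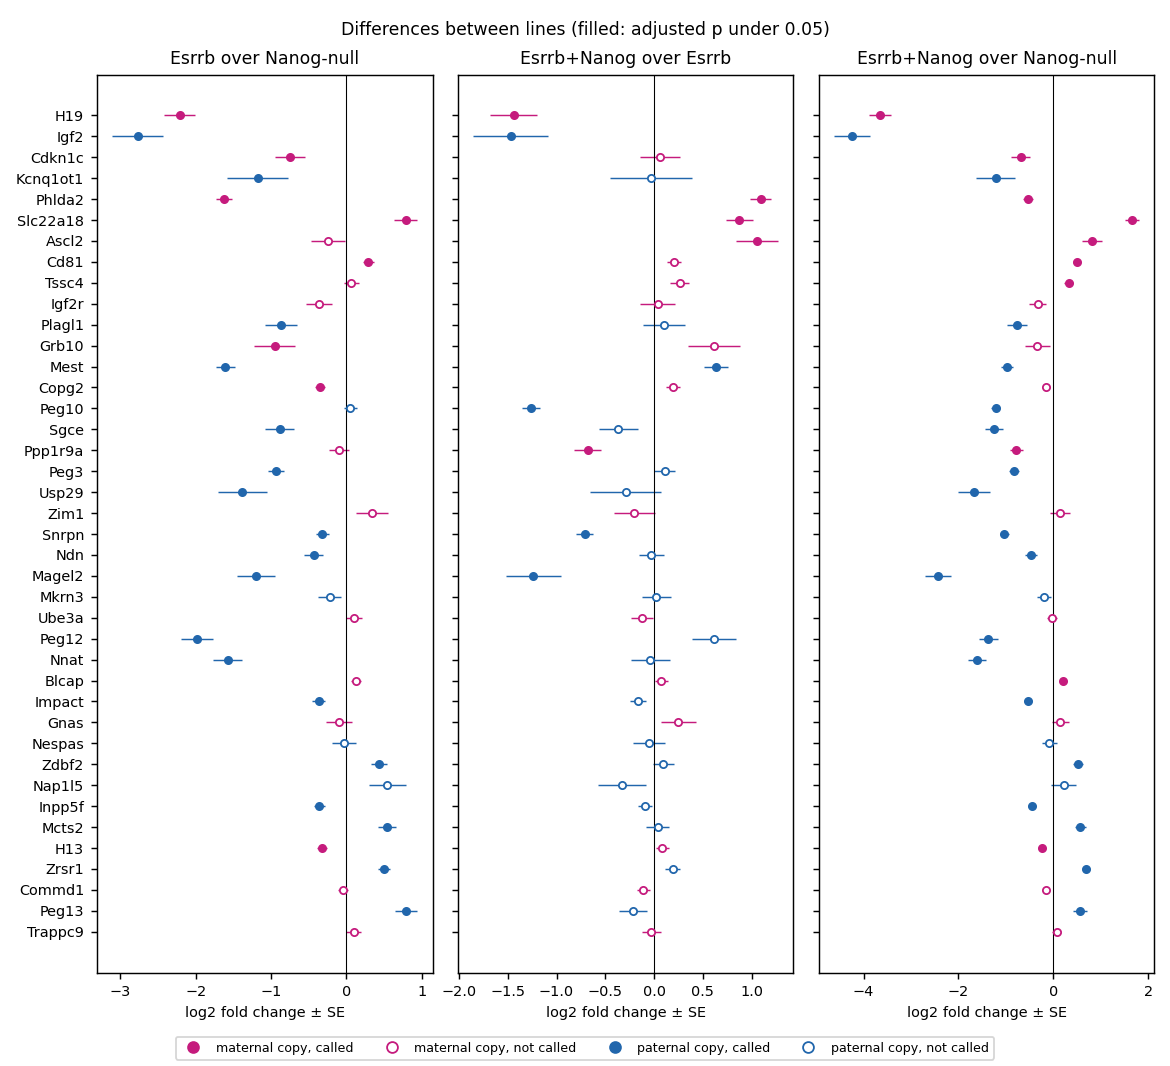
Points give the log2 fold change and bars its SE for each of the 40 tested genes in each comparison, coloured by expressed parental copy and filled where the adjusted p was under 0.05. The left panel has 20 filled points left of 0 and 6 right of it, and the middle panel has 6 and 4.

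In the Igf2-H19 domain of distal chromosome 7 the maternally expressed noncoding RNA H19 and the paternally expressed fetal growth factor Igf2 share enhancers. Both genes were lower in Esrrb cells than in Nanog-null cells, and lower again in Esrrb+Nanog cells. H19 (ENSMUSG00000000031, chromosome 7, 142575529 to 142578143, minus strand, mm10) was at 2.44, 2.13 and 2.03 CPM in Esrrb+Nanog cells, 4.77, 7.77 and 5.302 CPM in Esrrb cells and 20.6, 27.6 and 34.8 CPM in Nanog-null cells. The 3 lines did not overlap, with the Esrrb+Nanog libraries lowest and the Nanog-null libraries highest. Its log2 change was -2.22 ± 0.21 (SE, adjusted p = 6.96e-06) in Esrrb cells over Nanog-null cells, -1.44 ± 0.24 (adjusted p = 0.00282) in Esrrb+Nanog cells over Esrrb cells, and -3.65 ± 0.23 (adjusted p = 3.06e-07) in Esrrb+Nanog cells over Nanog-null cells.

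Igf2 (ENSMUSG00000048583, chromosome 7, 142650766 to 142666816, minus strand), whose start lies 88.7 kb from that of H19, was at 3.54, 4.59 and 4.66 CPM in Esrrb+Nanog cells, 7.12, 16.7 and 11.5 CPM in Esrrb cells and 43.1, 115 and 83.1 CPM in Nanog-null cells. Again the 3 lines did not overlap, and the Nanog-null libraries were spread most widely. The log2 changes were -2.77 ± 0.34 (adjusted p = 4.68e-05) in Esrrb cells over Nanog-null cells, the largest fall among the 40 genes in that comparison, and -4.24 ± 0.38 (adjusted p = 3.29e-06) in Esrrb+Nanog cells over Nanog-null cells. Between Esrrb+Nanog cells and Esrrb cells the change was -1.47 ± 0.38 (adjusted p = 0.0272), and that call was lost without any of the 3 Esrrb+Nanog libraries (adjusted p = 0.0861, 0.0721 and 0.0637) and without Esrrb replicate 2 (0.0758) or 3 (0.0587). Markers of other cell types differed between Esrrb and Nanog-null cells, where 24.2% of all genes were lower and 24.2% higher. Their part in the Igf2 changes was not tested. In Esrrb cells against Nanog-null cells 7 of 9 tested trophoblast markers were lower, with a median log2 change of -1.21, and 3 of 5 fibroblast markers were lower and 1 higher, with a median of -2.17. Among the fibroblast markers that fell, Acta2 had 3 counts in all in Esrrb cells and 2056 in Nanog-null cells, and Col1a2 had a log2 change of -4.87 ± 0.72 (adjusted p = 0.000197). Of the neural markers 4 of 6 were lower, with a median of -0.82, and of the primitive endoderm markers 6 of 11 were higher and 2 lower, with a median of 1.09. Without Nanog-null replicate 2, 5 trophoblast, 3 fibroblast and 3 neural markers were lower in Esrrb cells, beside 41.4% of all genes called in either direction. The log2 change of Igf2 was then -2.44 in Esrrb cells and -3.90 in Esrrb+Nanog cells over Nanog-null cells.

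The neighbouring Kcnq1 domain held 7 of the genes. In this domain the paternally expressed RNA Kcnq1ot1, transcribed from an intron of Kcnq1, is known to silence nearby genes on the paternal chromosome. The other 6 are grouped here as maternally expressed. In Esrrb cells against Nanog-null cells 2 of the 7 were higher and 3 lower, beside 24.2% of all genes in each direction. In Esrrb+Nanog cells against Nanog-null cells 4 were higher and 3 lower, beside 27.2% of all genes in each direction. Against Esrrb cells, 3 were higher in Esrrb+Nanog cells, beside 5.43% of all genes, and 4 were not called.

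Phlda2 (ENSMUSG00000010760, chromosome 7, 143501545 to 143503150, minus strand), which restrains placental growth and whose promoter is shown above, was at 23.8, 24.3 and 28.04 CPM in Esrrb+Nanog cells, 10.2, 13.1 and 12.4 CPM in Esrrb cells and 36.1, 38.8 and 35.6 CPM in Nanog-null cells. The Esrrb libraries were lowest, the Nanog-null libraries highest and the Esrrb+Nanog libraries between them, with no overlap. The log2 change was -1.63 ± 0.11 (adjusted p = 4.78e-07) in Esrrb cells over Nanog-null cells, the smallest adjusted p of any of the 40 genes there. It was 1.09 ± 0.11 (adjusted p = 8.95e-05) in Esrrb+Nanog cells over Esrrb cells and -0.54 ± 0.10 (adjusted p = 0.000842) in Esrrb+Nanog cells over Nanog-null cells.

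Slc22a18 (ENSMUSG00000000154, chromosome 7, 143473736 to 143499334, plus strand), an organic cation transporter gene next to Phlda2, followed another order. It was at 6.09, 6.68 and 5.57 CPM in Esrrb+Nanog cells, 3.56, 3.24 and 3.19 CPM in Esrrb cells and 1.99, 1.96 and 1.84 CPM in Nanog-null cells, highest in the Esrrb+Nanog libraries and lowest in the Nanog-null libraries with no overlap. It rose by 0.79 ± 0.15 (adjusted p = 0.00125) in Esrrb cells over Nanog-null cells, by 0.87 ± 0.14 (adjusted p = 0.00211) in Esrrb+Nanog cells over Esrrb cells and by 1.66 ± 0.15 (adjusted p = 3.38e-06) in Esrrb+Nanog cells over Nanog-null cells, all on the log2 scale. This last change was the only rise of more than 2-fold among the imprinted genes in that comparison. Phlda2 and Slc22a18 start 207 and 177 kb from the start of Kcnq1ot1, on the same side.

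Ascl2 (ENSMUSG00000009248, chromosome 7, 142966829 to 142969264, minus strand), a transcription factor needed in the placenta, was at 4.95, 6.31 and 4.795 CPM in Esrrb+Nanog cells, 2.32, 1.95 and 3.496 CPM in Esrrb cells and 3.15, 2.62 and 3.35 CPM in Nanog-null cells. The Esrrb+Nanog libraries were above all others, while the Esrrb and Nanog-null libraries overlapped. Its log2 change was 1.06 ± 0.22 (adjusted p = 0.00855) in Esrrb+Nanog cells over Esrrb cells and 0.81 ± 0.22 (adjusted p = 0.00734) over Nanog-null cells, and it was not called between the Esrrb and Nanog-null lines (-0.24, adjusted p = 0.401).

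Cdkn1c (ENSMUSG00000037664, chromosome 7, 143458339 to 143461050, minus strand), the cell cycle inhibitor p57, was at 12.2, 18.4 and 21.5 CPM in Esrrb+Nanog cells, 14, 15.5 and 20.5 CPM in Esrrb cells and 23.3, 33.4 and 27.2 CPM in Nanog-null cells. Both lines named for an added gene were below the Nanog-null libraries and overlapped each other. The log2 change was -0.75 ± 0.20 (adjusted p = 0.00898) in Esrrb cells and -0.69 ± 0.20 (adjusted p = 0.0127) in Esrrb+Nanog cells, each over Nanog-null cells, and the Esrrb+Nanog call was lost without Nanog-null replicate 2 (adjusted p = 0.0537).

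The tetraspanin Cd81 (ENSMUSG00000037706, chromosome 7, 143052739 to 143067934, plus strand) was at 153, 144 and 154 CPM in Esrrb+Nanog cells, 124, 123 and 146 CPM in Esrrb cells and 103, 112 and 107 CPM in Nanog-null cells. The Nanog-null libraries were below all others, and the Esrrb+Nanog and Esrrb libraries overlapped. It rose by 0.29 ± 0.07 on the log2 scale (adjusted p = 0.00668) in Esrrb cells and by 0.49 ± 0.07 (adjusted p = 0.000165) in Esrrb+Nanog cells over Nanog-null cells. Without Esrrb replicate 3 it was also called higher in Esrrb+Nanog cells than in Esrrb cells (log2 change 0.29, adjusted p = 0.0205; 0.20 and adjusted p = 0.0937 with all libraries). Its neighbour Tssc4 (ENSMUSG00000045752, chromosome 7, 143069249 to 143071093, plus strand), whose product takes part in assembly of the splicing machinery, was at 31.1, 32.98 and 30.6 CPM in Esrrb+Nanog cells, 27.7, 28.1 and 22.9 CPM in Esrrb cells and 22.8, 27.3 and 25.2 CPM in Nanog-null cells, with the Esrrb+Nanog libraries above all others. Its single call, 0.33 ± 0.10 (adjusted p = 0.0135) in Esrrb+Nanog cells over Nanog-null cells, was lost without Esrrb+Nanog replicate 2 (adjusted p = 0.0508) or Nanog-null replicate 1 (0.0730).

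Kcnq1ot1 itself (ENSMUSG00000101609, chromosome 7, 143203458 to 143296549, minus strand) was at 5.54, 4.79 and 5.95 CPM in Esrrb+Nanog cells, 5.598, 4.91 and 6.22 CPM in Esrrb cells and 24.5, 6.59 and 7.19 CPM in Nanog-null cells. Nanog-null replicate 1 stood far above every other library, and the remaining Nanog-null libraries lay just above the range of the other lines. The log2 change over Nanog-null cells was -1.18 ± 0.41 (adjusted p = 0.031) in Esrrb cells and -1.21 ± 0.41 (adjusted p = 0.025) in Esrrb+Nanog cells. Without Nanog-null replicate 1 these were -0.33 (adjusted p = 0.108) and -0.36 (adjusted p = 0.0810), so both calls rested on that library. The Esrrb call was also lost without Esrrb replicate 1 (0.0751) or 2 (0.0799), and the Esrrb+Nanog call without Esrrb+Nanog replicate 1 (0.0501), 2 (0.0760) or 3 (0.0501).

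**Figure D3:**
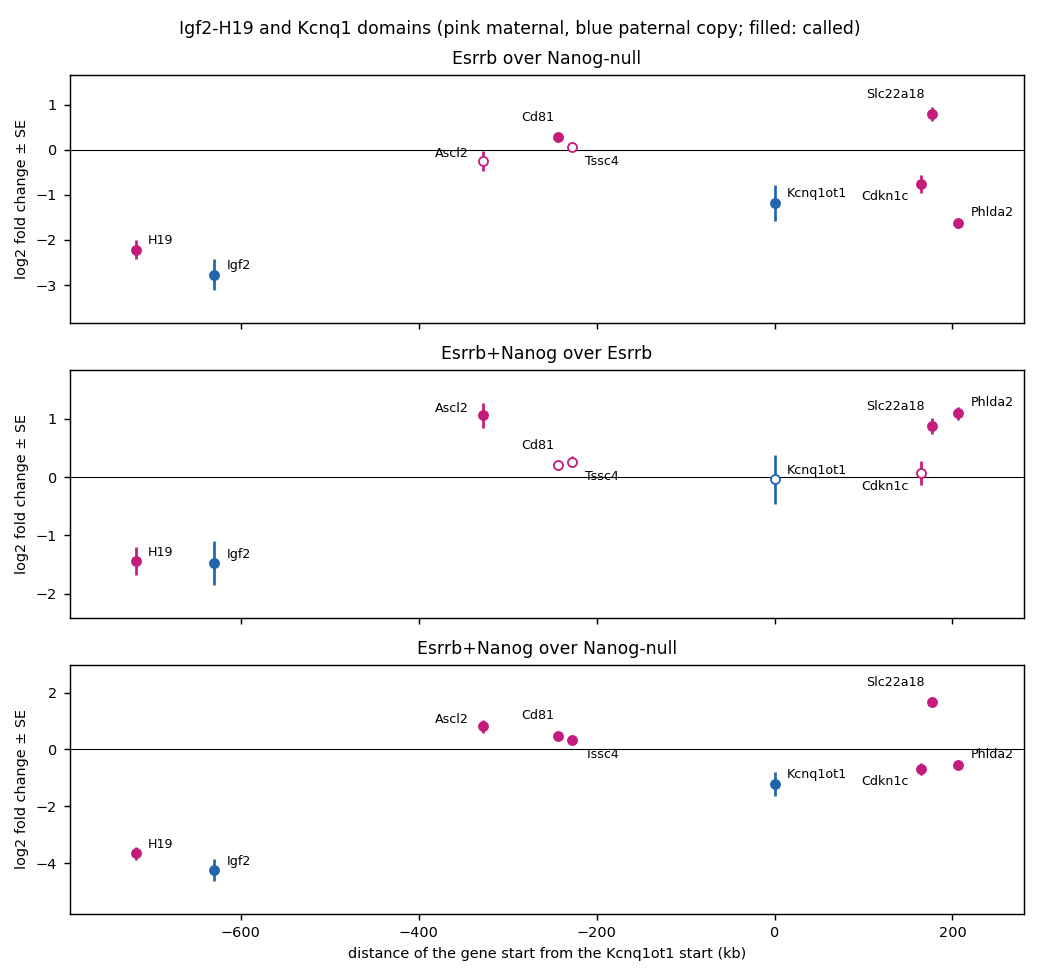
The x axis is the distance in kb of each gene start from the start of Kcnq1ot1 on mm10 chromosome 7, and the y axis the log2 fold change with its SE in each comparison, filled where called. H19 and Igf2 lie below 0 in every panel, Slc22a18 lies above 0 in every panel, and Phlda2 lies below 0 in the top and bottom panels and above 0 in the middle panel.

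Outside chromosome 7, Plagl1 was lower in both Esrrb and Esrrb+Nanog cells than in Nanog-null cells, Grb10 was lower in Esrrb cells than in Nanog-null cells, and Igf2r was not called. Igf2r (ENSMUSG00000023830, chromosome 17, 12682406 to 12769664, minus strand), the receptor that clears IGF2, was at 261, 159 and 199.9 CPM in Esrrb+Nanog cells, 203, 152 and 251 CPM in Esrrb cells and 266, 259.9 and 254 CPM in Nanog-null cells. The Esrrb libraries were below the Nanog-null libraries and the Esrrb+Nanog libraries overlapped both, and no comparison passed the test (-0.37, adjusted p = 0.111 in Esrrb cells and -0.33, adjusted p = 0.139 in Esrrb+Nanog cells over Nanog-null cells). It was called lower in Esrrb cells without Esrrb replicate 3 (-0.55, adjusted p = 0.0226) or Esrrb+Nanog replicate 1 (-0.38, 0.0455), and in Esrrb+Nanog cells without Esrrb+Nanog replicate 1 (-0.54, 0.0163). Its antisense RNA Airn (ENSMUSG00000078247, chromosome 17, 12741311 to 12860136, plus strand) had 2 counts in all in Esrrb+Nanog cells, 1 in Esrrb cells and 16 in Nanog-null cells, and lay under the low-count filter. With no such filter edgeR called it lower in Esrrb cells (adjusted p = 0.00326) and in Esrrb+Nanog cells (adjusted p = 0.0145) than in Nanog-null cells. DESeq2 called it lower in Esrrb cells (adjusted p = 0.0373) and not in Esrrb+Nanog cells (adjusted p = 0.0966). The Airn calls rest on few counts, and leaving out the filter moved the adjusted p-values of other genes far, so they are uncertain.

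Grb10 (ENSMUSG00000020176, chromosome 11, 11930508 to 12038683, minus strand), an adaptor that dampens insulin and IGF signalling, was at 128, 86.7 and 129 CPM in Esrrb+Nanog cells, 70.7, 42.2 and 112 CPM in Esrrb cells and 156, 148 and 131 CPM in Nanog-null cells. All Esrrb and Esrrb+Nanog libraries were below the Nanog-null range, and the Esrrb libraries were widely spread. Its log2 change was -0.95 ± 0.27 (adjusted p = 0.0111) in Esrrb cells over Nanog-null cells. The change in Esrrb+Nanog cells over Esrrb cells was not called (0.62, adjusted p = 0.157) but was 1.02 (adjusted p = 0.0133) without Esrrb replicate 3. Plagl1 (ENSMUSG00000019817, chromosome 10, 13060504 to 13131694, plus strand), a zinc finger factor that restrains proliferation, was at 3.25, 3.22 and 2.63 CPM in Esrrb+Nanog cells, 2.11, 3.43 and 2.92 CPM in Esrrb cells and 4.54, 6.32 and 4.62 CPM in Nanog-null cells. The Nanog-null libraries were above all others, and the log2 change was -0.87 ± 0.21 (adjusted p = 0.00447) in Esrrb cells and -0.77 ± 0.21 (adjusted p = 0.00779) in Esrrb+Nanog cells, each over Nanog-null cells.

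Mest (ENSMUSG00000051855, chromosome 6, 30723547 to 30748465, plus strand), a paternally expressed gene of the alpha/beta hydrolase family whose promoter is shown above, was at 33.9, 39.7 and 34.9 CPM in Esrrb+Nanog cells, 22.4, 27.98 and 19.5 CPM in Esrrb cells and 74.8, 74.6 and 63.9 CPM in Nanog-null cells. The order matched that of Phlda2, with the Esrrb libraries lowest, the Esrrb+Nanog libraries in the middle, the Nanog-null libraries highest and no overlap. Its log2 change was -1.61 ± 0.12 (adjusted p = 1.6e-06) in Esrrb cells and -0.98 ± 0.12 (adjusted p = 3.72e-05) in Esrrb+Nanog cells over Nanog-null cells, and 0.63 ± 0.12 (adjusted p = 0.00621) in Esrrb+Nanog cells over Esrrb cells. Copg2 (ENSMUSG00000025607, chromosome 6, 30747554 to 30896794, minus strand), a coat protein gene that runs the other way and shares 912 exon bases with Mest, was at 87.9, 77.2 and 76.1 CPM in Esrrb+Nanog cells, 72.7, 66.2 and 71.7 CPM in Esrrb cells and 90.9, 86.5 and 91.7 CPM in Nanog-null cells. Its Esrrb libraries were below all others, and the Esrrb+Nanog and Nanog-null libraries overlapped. It was lower in Esrrb cells than in Nanog-null cells (-0.35 ± 0.07, adjusted p = 0.0014), and without Esrrb+Nanog replicate 1 also in Esrrb+Nanog cells (-0.23, adjusted p = 0.0106). Strand use in the counting is not stated, so reads in the shared bases cannot be told apart. The same limit applies, among others, to Kcnq1ot1 with Kcnq1 (121 shared exon bases), Cdkn1c with Gm44732 (625), Tssc4 with Trpm5 (220) and Usp29 with Zim3 (2582). It also applies to H13 with Gm26841 (760) and Gnas with Gm20721 (1469). Snrpn shares 589 exon bases with Gm38393 and 216 with Snurf on its own strand, which strand use would not separate. Snurf had 0 counts in every library, so the level of Snrpn is uncertain.

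In the Peg10-Sgce domain of proximal chromosome 6 2 of the 3 genes were lower in Esrrb+Nanog cells than in Esrrb cells, and all 3 were lower there than in Nanog-null cells. Of all tested genes 7.75% were lower in Esrrb+Nanog cells than in Esrrb cells, and 27.2% than in Nanog-null cells. Peg10 (ENSMUSG00000092035, chromosome 6, 4747306 to 4760517, plus strand), a retrotransposon-derived gene needed in the placenta, was at 900.1, 842 and 692 CPM in Esrrb+Nanog cells, 1839.8, 1971 and 2039 CPM in Esrrb cells and 2000.2, 1863 and 1784 CPM in Nanog-null cells. The Esrrb and Nanog-null libraries overlapped and the Esrrb+Nanog libraries were far below them. The log2 change was -1.27 ± 0.09 (adjusted p = 1.38e-05) in Esrrb+Nanog cells over Esrrb cells and -1.21 ± 0.09 (adjusted p = 8.87e-07) over Nanog-null cells, against 0.05 ± 0.09 (adjusted p = 0.669) in Esrrb cells over Nanog-null cells.

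Sgce (ENSMUSG00000004631, chromosome 6, 4674350 to 4747207, minus strand), the epsilon-sarcoglycan gene that starts 99 bases from Peg10 on the opposite strand, was at 15.99, 12.03 and 7.595 CPM in Esrrb+Nanog cells, 14.03, 15.3 and 16.5 CPM in Esrrb cells and 27.8, 29.9 and 27.03 CPM in Nanog-null cells. Its Nanog-null libraries were above all others, and the other lines overlapped. It was lower in Esrrb cells than in Nanog-null cells (-0.89 ± 0.19, adjusted p = 0.0025), and lower in Esrrb+Nanog cells than in Nanog-null cells (-1.25 ± 0.20, adjusted p = 0.00022). The Esrrb+Nanog libraries were widely spread and the change over Esrrb cells was not called (-0.37, adjusted p = 0.258), except without Esrrb+Nanog replicate 1 (-0.63, adjusted p = 0.0333). The maternally expressed Ppp1r9a (ENSMUSG00000032827, chromosome 6, 4902917 to 5165661, plus strand), which encodes the actin-binding scaffold neurabin, was at 60.5, 52.5 and 55.97 CPM in Esrrb+Nanog cells, 94.9, 75.1 and 101 CPM in Esrrb cells and 118, 82.5 and 89.7 CPM in Nanog-null cells. Its Esrrb+Nanog libraries were below all others, with log2 changes of -0.68 ± 0.13 (adjusted p = 0.00682) over Esrrb cells and -0.78 ± 0.14 (adjusted p = 0.000485) over Nanog-null cells, while the Esrrb and Nanog-null lines overlapped.

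The paternally expressed genes of the Peg3 domain were lower in both lines named for an added gene. Peg3 (ENSMUSG00000002265, chromosome 7, 6703892 to 6730431, minus strand), a zinc finger factor whose promoter is shown above, was at 74.8, 58.8 and 77.1 CPM in Esrrb+Nanog cells, 63.5, 59.4 and 72.6 CPM in Esrrb cells and 121, 136 and 116 CPM in Nanog-null cells. The Nanog-null libraries were above all others and the other lines overlapped, with log2 changes over Nanog-null cells of -0.93 ± 0.11 (adjusted p = 3.08e-05) in Esrrb cells and -0.83 ± 0.11 (adjusted p = 5.75e-05) in Esrrb+Nanog cells. Usp29 (ENSMUSG00000051527, chromosome 7, 6730578 to 6967219, plus strand), a ubiquitin protease gene that starts 147 bases away on the opposite strand, was at 1.37, 0.764 and 0.455 CPM in Esrrb+Nanog cells, 1.35, 0.818 and 0.999 CPM in Esrrb cells and 3.38, 2.504 and 2.41 CPM in Nanog-null cells. Its Nanog-null libraries were above all others. The promoter windows of Peg3 and Usp29 share 263 bases. Usp29 changed by -1.38 ± 0.32 (adjusted p = 0.00402) in Esrrb cells and by -1.67 ± 0.33 (adjusted p = 0.00125) in Esrrb+Nanog cells over Nanog-null cells. The maternally expressed zinc finger gene Zim1 (ENSMUSG00000002266, chromosome 7, 6671269 to 6696450, minus strand) was at 1.37 to 1.85 CPM in Esrrb+Nanog cells, 1.605 to 2.07 CPM in Esrrb cells and 1.27 to 1.67 CPM in Nanog-null cells, and was not called in any comparison.

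In the Snrpn-Ube3a domain, whose human counterpart is known from Prader-Willi and Angelman syndromes, 4 of the 5 paternally expressed genes were lower in Esrrb cells and in Esrrb+Nanog cells than in Nanog-null cells. Of all tested genes 24.2% were lower in Esrrb cells and 27.2% in Esrrb+Nanog cells. Snrpn (ENSMUSG00000102252, chromosome 7, 59982495 to 60140219, minus strand), which encodes a core protein of the splicing machinery, was at 98.5, 96.6 and 105 CPM in Esrrb+Nanog cells, 175, 139 and 178 CPM in Esrrb cells and 219, 198 and 197 CPM in Nanog-null cells. The 3 lines did not overlap and the Esrrb+Nanog libraries were lowest. The log2 change of Snrpn was -0.32 ± 0.09 (adjusted p = 0.0104) in Esrrb cells over Nanog-null cells, -0.71 ± 0.09 (adjusted p = 0.0005) in Esrrb+Nanog cells over Esrrb cells and -1.03 ± 0.09 (adjusted p = 2.76e-06) in Esrrb+Nanog cells over Nanog-null cells.

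Magel2 (ENSMUSG00000056972, chromosome 7, 62377010 to 62381640, plus strand), a MAGE family gene that acts in protein recycling, was at 2.22, 1.61 and 2.52 CPM in Esrrb+Nanog cells, 6.36, 2.801 and 5.95 CPM in Esrrb cells and 11.3, 12.5 and 10.8 CPM in Nanog-null cells. It had the same order of lines without overlap, and Esrrb replicate 2 came close to the Esrrb+Nanog libraries. Magel2 changed by -1.20 ± 0.25 on the log2 scale (adjusted p = 0.00199) in Esrrb cells and -2.44 ± 0.27 (adjusted p = 1.86e-05) in Esrrb+Nanog cells over Nanog-null cells. The change of -1.24 ± 0.28 (adjusted p = 0.0138) in Esrrb+Nanog cells over Esrrb cells lost its call without Esrrb+Nanog replicate 2 (adjusted p = 0.0605) or Esrrb replicate 1 (0.0655).

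Ndn (ENSMUSG00000033585, chromosome 7, 62346569 to 62350262, plus strand), another MAGE gene 30.4 kb from Magel2, was at 10.4, 9.37 and 8.996 CPM in Esrrb+Nanog cells, 10.2, 9.31 and 9.797 CPM in Esrrb cells and 11.9, 15.7 and 11.9 CPM in Nanog-null cells. The Nanog-null libraries were above all others by a small margin, with log2 changes of -0.43 ± 0.13 (adjusted p = 0.0137) in Esrrb cells and -0.46 ± 0.13 (adjusted p = 0.00878) in Esrrb+Nanog cells over Nanog-null cells, and the Esrrb call was lost without Nanog-null replicate 2 (adjusted p = 0.0561). Peg12 (ENSMUSG00000070526, chromosome 7, 62461871 to 62464510, minus strand), a gene of the FRAT family that acts on GSK3 in Wnt signalling, was at 1.51, 1.01 and 1.19 CPM in Esrrb+Nanog cells, 0.829, 0.724 and 0.884 CPM in Esrrb cells and 3.34, 3.43 and 2.88 CPM in Nanog-null cells. All its Nanog-null libraries lay above the other lines, with log2 changes of -1.98 ± 0.21 (adjusted p = 1.62e-05) in Esrrb cells and -1.37 ± 0.20 (adjusted p = 0.000137) in Esrrb+Nanog cells over Nanog-null cells. The ring finger gene Mkrn3 (ENSMUSG00000070527, chromosome 7, 62417593 to 62420139, minus strand) was at 7.76 to 10.4 CPM in Esrrb+Nanog cells, 8.402 to 9.68 CPM in Esrrb cells and 9.17 to 12.7 CPM in Nanog-null cells, and was not called.

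Ube3a (ENSMUSG00000025326, chromosome 7, 59228750 to 59311536, plus strand), the ubiquitin ligase of this domain, is grouped here as its maternally expressed member. Whether it is imprinted in these cells was not tested. Ube3a was at 111 to 119.8 CPM in Esrrb+Nanog cells, 118 to 139 CPM in Esrrb cells and 98.1 to 141 CPM in Nanog-null cells and was not called in any comparison. The long noncoding RNA Snhg14, which in neurons runs antisense to Ube3a and shares 1803 exon bases with it in the annotation, was chosen after its values were seen. Snhg14 was lower in Esrrb cells (-0.90 ± 0.18, adjusted p = 0.00164) and in Esrrb+Nanog cells (-1.78 ± 0.19, adjusted p = 1.06e-05) than in Nanog-null cells, and lower in Esrrb+Nanog cells than in Esrrb cells (-0.89 ± 0.18, adjusted p = 0.00855).

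**Figure D4:**
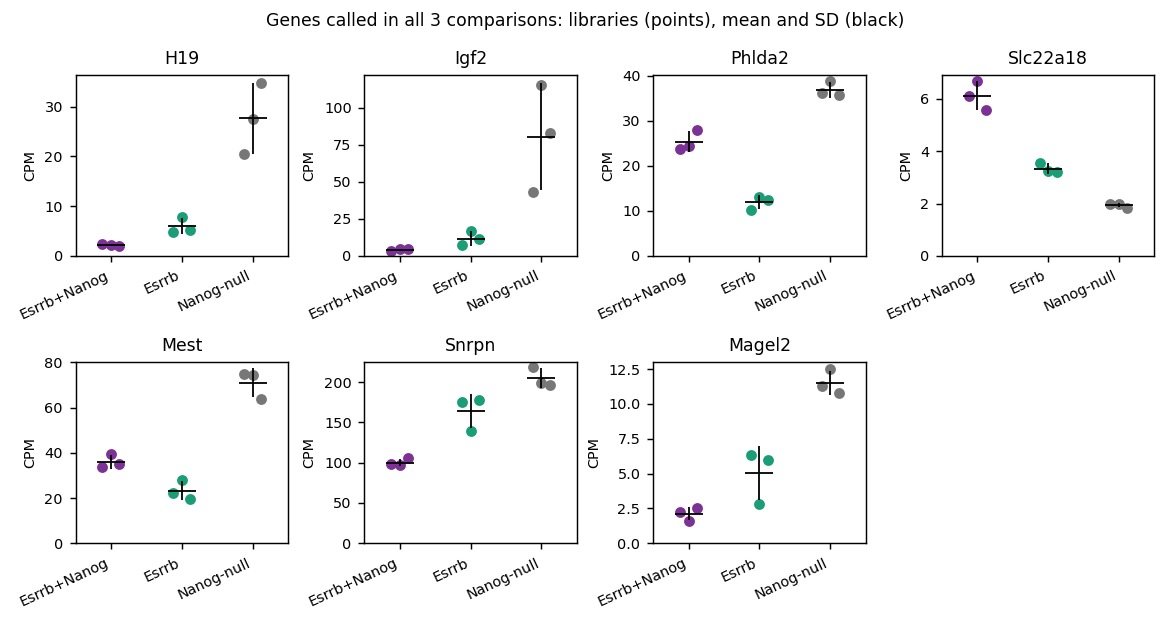
Points are the CPM of single libraries in each line, with the mean and SD of 3 libraries in black, for the 7 imprinted genes called in all 3 comparisons; every y axis starts at 0. H19, Igf2, Snrpn and Magel2 are lowest in Esrrb+Nanog cells and highest in Nanog-null cells, Slc22a18 is the reverse, and Phlda2 and Mest are lowest in Esrrb cells.

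Several imprinted genes lie within another gene. Nnat (ENSMUSG00000067786, chromosome 2, 157560078 to 157562522, plus strand), a small membrane protein of neurons and endocrine cells that sits inside Blcap, was at 2.77, 2.21 and 2.35 CPM in Esrrb+Nanog cells, 2.56, 2.895 and 2.04 CPM in Esrrb cells and 6.998, 9.21 and 6.29 CPM in Nanog-null cells. The Nanog-null libraries were above all others, with log2 changes of -1.58 ± 0.19 (adjusted p = 4.41e-05) in Esrrb cells and -1.61 ± 0.19 (adjusted p = 2.99e-05) in Esrrb+Nanog cells over Nanog-null cells. Its host Blcap (ENSMUSG00000067787, chromosome 2, 157556362 to 157571274, minus strand), which encodes a small membrane protein, was at 32.4, 32.5 and 32.9 CPM in Esrrb+Nanog cells, 30.1, 31.8 and 30.9 CPM in Esrrb cells and 27.99, 28.96 and 28.2 CPM in Nanog-null cells. The 3 lines did not overlap, with the Esrrb+Nanog libraries highest and the Nanog-null libraries lowest, by small margins. Blcap rose by 0.20 ± 0.06 (adjusted p = 0.0211) in Esrrb+Nanog cells over Nanog-null cells. That call was lost without Esrrb+Nanog replicate 2 (adjusted p = 0.0518) or 3 (0.0563) and without Nanog-null replicate 1 (0.0756) or 3 (0.0853).

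Mcts2 (ENSMUSG00000042814, chromosome 2, 152687035 to 152687946, plus strand), an intronless copy of the translation factor gene Mcts1, lies in an intron of H13 and was at 19.2, 25.2 and 26.2 CPM in Esrrb+Nanog cells, 22.5, 25.3 and 21.1 CPM in Esrrb cells and 16.5, 16.1 and 14.99 CPM in Nanog-null cells. It was above the Nanog-null libraries in every library of both other lines, with log2 changes of 0.53 ± 0.12 (adjusted p = 0.00324) in Esrrb cells and 0.57 ± 0.12 (adjusted p = 0.00182) in Esrrb+Nanog cells over Nanog-null cells. H13 (ENSMUSG00000019188, chromosome 2, 152669461 to 152708670, plus strand), the signal peptide peptidase gene, was at 32.9, 34.7 and 35.98 CPM in Esrrb+Nanog cells, 33.2, 32.6 and 32 CPM in Esrrb cells and 39.1, 42.7 and 41.2 CPM in Nanog-null cells. Its Nanog-null libraries were above all others. H13 went the other way, with log2 changes of -0.33 ± 0.07 (adjusted p = 0.00179) in Esrrb cells and -0.25 ± 0.07 (adjusted p = 0.00877) in Esrrb+Nanog cells over Nanog-null cells. The parent gene Mcts1, looked up after the Mcts2 values were seen, changed by -0.05 (adjusted p = 0.693) in Esrrb cells and by -0.02 (adjusted p = 0.884) in Esrrb+Nanog cells over Nanog-null cells. Reads shared between such near-identical copies could have been split or lost in the counting, so the values of Mcts2 are uncertain.

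Zrsr1 (ENSMUSG00000044068, chromosome 11, 22972005 to 22976496, plus strand), an intronless copy of the splicing factor gene Zrsr2, lies within Commd1 and was at 25.9, 26.1 and 27.7 CPM in Esrrb+Nanog cells, 23.3, 23.9 and 22.7 CPM in Esrrb cells and 16.5, 15.7 and 17.2 CPM in Nanog-null cells. The order of the lines was complete, with the Esrrb+Nanog libraries highest and the Nanog-null libraries lowest. Zrsr1 rose by 0.50 ± 0.08 (adjusted p = 0.000221) in Esrrb cells and by 0.69 ± 0.08 (adjusted p = 1.53e-05) in Esrrb+Nanog cells over Nanog-null cells. Its parent gene Zrsr2, also looked up afterwards, rose by 0.24 (adjusted p = 0.0190) in Esrrb cells and by 0.32 (adjusted p = 0.00376) in Esrrb+Nanog cells over Nanog-null cells, and reads shared between the copies make these values uncertain. Commd1 (ENSMUSG00000051355, chromosome 11, 22896136 to 22982382, minus strand), which acts in copper handling and shares 412 exon bases with Zrsr1, was at 25.6 to 26.4 CPM in Esrrb+Nanog cells, 27.2 to 29.5 CPM in Esrrb cells and 28.6 to 29.4 CPM in Nanog-null cells and was not called.

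Peg13 (ENSMUSG00000106847, chromosome 15, 72805600 to 72810324, minus strand), a noncoding RNA within Trappc9, was at 5.02, 5.35 and 5.92 CPM in Esrrb+Nanog cells, 6.05, 6.51 and 6.42 CPM in Esrrb cells and 4.403, 3.24 and 3.41 CPM in Nanog-null cells. Both lines named for an added gene were above the Nanog-null libraries, with log2 changes of 0.79 ± 0.15 (adjusted p = 0.00107) in Esrrb cells and 0.57 ± 0.15 (adjusted p = 0.00732) in Esrrb+Nanog cells over Nanog-null cells. Trappc9 (ENSMUSG00000047921, chromosome 15, 72589620 to 73061204, minus strand), a vesicle trafficking gene, was at 30.1 to 36.8 CPM in Esrrb+Nanog cells, 30.7 to 36.6 CPM in Esrrb cells and 28.4 to 33.3 CPM in Nanog-null cells and was not called. The potassium channel gene Kcnk9 (ENSMUSG00000036760, chromosome 15, 72501089 to 72546340, minus strand) of the same domain had 1 count in the 9 libraries, in Esrrb replicate 2. Nap1l5 (ENSMUSG00000055430, chromosome 6, 58905233 to 58907076, minus strand), a histone chaperone family gene within Herc3, was at 0.997 to 1.29 CPM in Esrrb+Nanog cells, 1.31 to 1.498 CPM in Esrrb cells and 0.669 to 1.23 CPM in Nanog-null cells. It was not called, except in Esrrb cells over Nanog-null cells without Nanog-null replicate 2 (0.75, adjusted p = 0.0441).

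Among the imprinted genes that stand alone, Impact (ENSMUSG00000024423, chromosome 18, 12955852 to 12992950, plus strand), a regulator of translation under amino acid stress, was at 432, 377 and 389.8 CPM in Esrrb+Nanog cells, 425, 412 and 503 CPM in Esrrb cells and 605, 543 and 582 CPM in Nanog-null cells. The Nanog-null libraries were above all others, and the log2 change was -0.37 ± 0.08 (adjusted p = 0.00315) in Esrrb cells and -0.53 ± 0.08 (adjusted p = 0.000226) in Esrrb+Nanog cells over Nanog-null cells. Inpp5f (ENSMUSG00000042105, chromosome 7, 128611328 to 128696425, plus strand), a phosphoinositide phosphatase gene, was at 33.9, 36.6 and 36.8 CPM in Esrrb+Nanog cells, 37.01, 39.7 and 37.8 CPM in Esrrb cells and 52.8, 47.5 and 47.1 CPM in Nanog-null cells. It too was highest in the Nanog-null libraries, with log2 changes of -0.36 ± 0.07 (adjusted p = 0.00137) in Esrrb cells and -0.46 ± 0.07 (adjusted p = 0.000227) in Esrrb+Nanog cells over Nanog-null cells. Zdbf2 (ENSMUSG00000027520, chromosome 1, 63273265 to 63314576, plus strand), a zinc finger gene known to affect feeding and growth after birth, was at 290.1, 269.8 and 293 CPM in Esrrb+Nanog cells, 279, 247 and 273 CPM in Esrrb cells and 241, 171 and 181 CPM in Nanog-null cells. Its Nanog-null libraries were below all others. It went the opposite way, rising by 0.43 ± 0.11 (adjusted p = 0.0065) in Esrrb cells and by 0.53 ± 0.11 (adjusted p = 0.00166) in Esrrb+Nanog cells over Nanog-null cells. Rasgrf1 (ENSMUSG00000032356, chromosome 9, 89909908 to 90026977, plus strand), an exchange factor for Ras, had 5 counts in Esrrb+Nanog cells, 2 in Esrrb cells and 4 in Nanog-null cells and was not tested.

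Neither gene of the Gnas domain was called, and the lowest of their adjusted p-values was 0.398. Gnas (ENSMUSG00000027523, chromosome 2, 174284320 to 174346744, plus strand), the G protein alpha subunit gene, was at 22.4 to 23.3 CPM in Esrrb+Nanog cells, 18 to 21.3 CPM in Esrrb cells and 15.2 to 28.3 CPM in Nanog-null cells, with Nanog-null replicate 2 highest. Without that library it was called higher in Esrrb+Nanog cells than in Nanog-null cells (0.44, adjusted p = 0.00772; 0.15 and adjusted p = 0.498 with it). Its antisense partner Nespas (ENSMUSG00000086537, chromosome 2, 174281237 to 174295436, minus strand), which shares 988 exon bases with it, was at 2.86 to 4.02 CPM in Esrrb+Nanog cells, 3.304 to 3.92 CPM in Esrrb cells and 3.58 to 3.94 CPM in Nanog-null cells.

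Levels were compared between genes as CPM per kb of exon. Peg10 was highest in every line, with means of 122 CPM per kb in Esrrb+Nanog cells, 292 in Esrrb cells and 282 in Nanog-null cells. Impact, Snrpn and Cd81 took the next places in some order in each line. Usp29 and Kcnq1ot1 were lowest, at 0.0477 and 0.0583 CPM per kb in Esrrb+Nanog cells, 0.0584 and 0.0599 in Esrrb cells and 0.153 and 0.137 in Nanog-null cells. Igf2 ranked 33 of 40 in Esrrb+Nanog cells, 26 in Esrrb cells and 12 in Nanog-null cells, and H19 ranked 32 in Esrrb+Nanog cells, 25 in Esrrb cells and 15 in Nanog-null cells. Slc22a18 had the opposite order, ranking 24 in Esrrb+Nanog cells, 27 in Esrrb cells and 34 in Nanog-null cells. The median over the 40 genes was 4.04 CPM per kb in Esrrb+Nanog cells, 4.43 in Esrrb cells and 5.30 in Nanog-null cells.

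**Figure D5:**
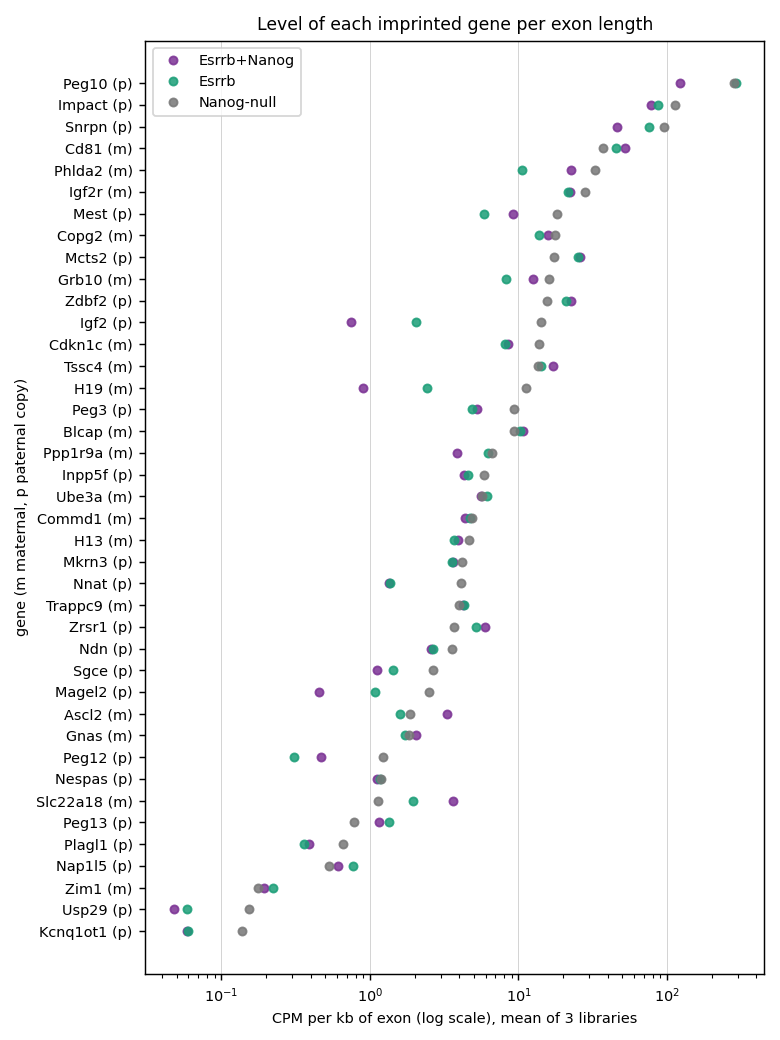
Each row is a tested imprinted gene and each point the mean CPM per kb of exon of 3 libraries of a line, on a log scale. Peg10 is highest in all lines, Igf2 and H19 show the widest gaps between lines, and most other genes have their 3 points close together.

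Further lists, written with earlier results of these data known, put these genes beside related ones. Of 7 tested genes of the Dlk1-Dio3 cluster, 5 were lower and 0 higher in Esrrb cells against Nanog-null cells, with a median log2 change of -3.23. Over all tested genes 24.2% were called in each direction there. Between Esrrb+Nanog cells and Esrrb cells edgeR called 0 of those 7, with 0 at an unadjusted p under 0.05, and DESeq2 called 0. Their median was 0.14. Of the 40 genes outside the cluster 10 were called, and of all tested genes 13.2%. The difference between the cluster and the genes outside it was not tested, and 7 genes are few. In Esrrb+Nanog cells against Nanog-null cells the cluster again gave 5 lower and 0 higher, beside 27.2% of all genes in each direction. The median of the cluster was -3.95 there.

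Of 25 tested genes that are imprinted in some tissues or lie beside an imprinted domain, 6 were higher and 5 lower in Esrrb cells against Nanog-null cells, beside 24.2% of all genes in each direction. In Esrrb+Nanog cells 3 were higher and 8 lower against Esrrb cells, beside 5.43% and 7.75% of all genes. Against Nanog-null cells 9 were higher and 11 lower in Esrrb+Nanog cells, beside 27.2% in each direction. The phospholipid flippase gene Atp10a, next to Ube3a, averaged 2.83 ± 0.30 CPM in Esrrb+Nanog cells, 5.69 ± 0.68 CPM in Esrrb cells and 46.9 ± 3.3 CPM in Nanog-null cells (SD, n = 3 each). Its log2 change was -3.05 ± 0.11 (adjusted p = 6.49e-09) in Esrrb cells over Nanog-null cells and -1.0 ± 0.13 (adjusted p = 0.000592) in Esrrb+Nanog cells over Esrrb cells. Cobl, an actin nucleator gene, and Ddc, which encodes a decarboxylase of amine synthesis, both beside Grb10, rose in Esrrb cells by 1.11 ± 0.13 (adjusted p = 3.33e-05) and 1.15 ± 0.13 (adjusted p = 3.34e-05), opposite to Grb10. Sfmbt2, a Polycomb-linked gene imprinted in the placenta, and Smoc1, a calcium-binding matrix gene, fell in Esrrb+Nanog cells against Esrrb cells, with log2 changes of -1.15 ± 0.10 (adjusted p = 4.88e-05) and -1.38 ± 0.10 (adjusted p = 1.56e-05).

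Of 17 tested genes that set or keep imprints, 9 were higher and 3 lower in Esrrb cells against Nanog-null cells, beside 24.2% of all genes in each direction. In Esrrb+Nanog cells 5 were lower and 12 not called against Esrrb cells, beside 7.75% of all genes lower, and 8 were higher and 6 lower against Nanog-null cells, beside 27.2% in each direction. Zfp57 averaged 587 ± 47 CPM in Esrrb+Nanog cells, 568 ± 2.7 CPM in Esrrb cells and 107 ± 12 CPM in Nanog-null cells (SD, n = 3 each), with a log2 change of 2.45 ± 0.09 (adjusted p = 2.78e-09) in Esrrb+Nanog cells over Nanog-null cells. The histone H3 lysine 9 methyltransferase gene Setdb1 rose by 0.81 ± 0.07 (adjusted p = 4.67e-06) in Esrrb cells over Nanog-null cells. The de novo DNA methyltransferase genes Dnmt3a and Dnmt3b fell in Esrrb+Nanog cells against Esrrb cells, with log2 changes of -1.04 ± 0.09 (adjusted p = 3.8e-05) and -0.70 ± 0.08 (adjusted p = 0.000192). In Esrrb cells over Nanog-null cells Dnmt3a rose, by 0.80 ± 0.09 (adjusted p = 2.16e-05), and Dnmt3b changed by -0.35 ± 0.08 (adjusted p = 0.00234). Dppa3, which limits maintenance methylation, changed by -5.34 ± 0.15 (adjusted p = 1.81e-09) in Esrrb cells over Nanog-null cells and by -1.81 ± 0.25 (adjusted p = 0.000975) in Esrrb+Nanog cells over Esrrb cells. DNA methylation was not analysed here, and whether these changes bear on the imprinted genes was not tested.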

How the data were processed

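RNA of sorted cells was freed of ribosomal RNA and sequenced from NEBNext Ultra II libraries, per the labels' protocols. The submitters' processing notes name bcl2fastq 2.19.1, STAR 2.5.3a and the mm10 build without their roles. The deposited table holds unscaled read counts as whole numbers, 1 row per Ensembl gene, per the file headers and the values. How reads were assigned to genes, and whether strand was used, is not given in the sources used here. Of 15 library columns, 9 matched the samples and the other 6 were not used here.

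Symbols and positions came from GENCODE M21, and promoter sequences from RefSeq (GRCm38.p6). The low-count filter, trimmed mean of M values scaling and quasi-likelihood test of edgeR 4.0.16 (R 4.3.3) were applied to the 9 libraries together, with line as the sole factor. Benjamini-Hochberg adjustment ran over the 16198 tested genes, the threshold was 0.05, and adjusted p always refers to this procedure. CPM used scaled library sizes without a pseudocount, and SE is the log2 change over the square root of its F statistic. CPM per kb divided by the summed exon length of a gene. Replicate libraries all differed beyond sampling noise (chi-square per degree of freedom 5.53 to 21.9). For a single gene, 3 libraries against 3 allow no exact permutation p under 0.1.

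The listed genes and all other lists were chosen with earlier results of these data known. Library values are printed for every listed gene called in at least 1 comparison with at least 1 CPM in its higher line (31 genes), and ranges for the rest. From each other list at most the 3 genes with the smallest adjusted p in a comparison are named, except where stated. The alternatives used median-of-ratios factors, library totals alone, DESeq2 1.42.0, no low-count filter, only the lines compared, the replicate number as a block, or left out each library in turn. Counts by parental copy, domain and list without Nanog-null replicate 1 or 2 were added after the data were seen. The procedure was tested on simulated data with known changes.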

Additional observations from a re-analysis of the deposited data

How the results depend on the processing

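Across 15 alternatives, 1756 of 1800 values of a gene in a comparison kept their direction and side of the threshold, 25 lost a call, 19 gained a call and 0 reversed. The number of imprinted genes called was within 1.5 times of the count given, except that 7 rather than 4 were higher in Esrrb+Nanog cells than in Esrrb cells with library totals alone; that scaling added Cd81, Copg2 and Zrsr1, and it moved the median log2 change of all genes by 0.06. With each library left out in turn, 6 to 7 imprinted genes were higher and 19 to 21 lower in Esrrb cells against Nanog-null cells, 4 to 6 higher and 4 to 6 lower in Esrrb+Nanog cells against Esrrb cells, and 7 to 10 higher and 19 to 21 lower in Esrrb+Nanog cells against Nanog-null cells. In Esrrb+Nanog cells against Esrrb cells 2135 of all genes were called, and 1105 without Esrrb replicate 1, 1378 without Esrrb replicate 3 and 1215 without Esrrb+Nanog replicate 2. The correlations of same-numbered deviations ran from -0.02 to 0.28, and 4 of 9 libraries correlated best with a library of their own number. Replicate 2 of every line was among these. Its correlations were 0.11 for Esrrb with Nanog-null cells, 0.28 for Esrrb+Nanog with Esrrb cells and 0.07 for Esrrb+Nanog with Nanog-null cells. Libraries numbered 2 were thus weakly paired, which the fit with line as sole factor did not model. With the replicate block 6 imprinted genes were higher and 21 lower in Esrrb cells against Nanog-null cells, 4 and 6 in Esrrb+Nanog cells against Esrrb cells, and 9 and 21 in Esrrb+Nanog cells against Nanog-null cells; the genes added were Igf2r in both comparisons with Nanog-null cells (adjusted p = 0.0341 and 0.0450). DESeq2 gave the same counts as edgeR in all 3 comparisons, but in Esrrb cells against Nanog-null cells it lost Kcnq1ot1 (adjusted p = 0.0575) and called Airn lower (adjusted p = 0.0373), a gene under the edgeR filter. With no low-count filter 6 imprinted genes were higher and 22 lower, 5 higher and 7 lower, and 8 higher and 23 lower, in the comparisons in the order given above. That setting moved some adjusted p-values far at nearly the same log2 change. For Grb10 in Esrrb+Nanog cells over Esrrb cells edgeR gave 3.24e-13 rather than 0.157. For Blcap in Esrrb+Nanog cells over Nanog-null cells it gave 0.143 rather than 0.0211. The precision of low genes such as Usp29, Plagl1 and Nap1l5 is limited by their counts, and Airn, Rasgrf1 and Kcnk9 were removed by the low-count filter; with no filter edgeR called Airn lower in both comparisons with Nanog-null cells (adjusted p = 0.00326 in Esrrb cells and 0.0145 in Esrrb+Nanog cells).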

Other observations

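The hexamer TGCCGC was found in promoter windows of 12 imprinted genes. In Esrrb cells against Nanog-null cells, Nnat, Mest, Copg2, Snrpn, Igf2, Plagl1 and Grb10 were lower, Zdbf2 and Mcts2 were higher, and Nap1l5, Zim1 and Commd1 were not called. Of the 40 tested imprinted genes 50% were lower and 15% higher there, and of all tested genes 24.2% in each direction. Whether the hexamer bears on these changes was not tested. Among the windows with the hexamer the Zdbf2 window held 3 copies and the Mest and Nap1l5 windows 2 each. The Grb10 window had the most CpG of the 12 genes, 45, and the Snrpn window the fewest, 7.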
